A study of Mus musculus with 6 samples.

Results

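Lin28a, L1td1, Trim71 and Igf2bp1 encode RNA-binding proteins of stem cells, and all 4 were found by symbol among the 12331 gene rows of a deposited mouse expression table. Expression had been measured by RNA-seq in 6 libraries of E14tg2a, an established line of mouse embryonic stem cells grown in serum with the self-renewal cytokine LIF. The series set sonication against tagmentation as ways to turn cDNA of single-cell amount into sequencing libraries. In both groups 10 pg of total RNA was copied from an oligo(dT) primer and amplified by 20 cycles of PCR. The 3 sonication libraries were made from cDNA broken by ultrasound and ligated to adaptors. For the 3 tagmentation libraries, hyperactive Tn5 transposase cut and tagged 100 ng of this cDNA at 55 °C for 5 min, and 13 cycles of PCR followed. By the labels, line, medium and starting RNA are shared, and the groups differ in the library method. The labels call the libraries technical replicates numbered 1 to 3 in each method and do not say whether a number stands for a shared cDNA. The sample descriptions speak of a single cell lysate, while the protocol has RNA extracted from cells and diluted.

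LIN28A binds the precursors of the let-7 microRNAs and blocks their maturation, and let-7 in turn represses the mRNAs of Lin28a, its paralogue Lin28b and other growth genes, which makes the pair a switch between stem cell and differentiated states. TRIM71 is a target of let-7 and represses mRNAs as an RNA-binding protein of early embryos. IGF2BP1 binds mRNAs and protects many of them from decay, and L1TD1 is an RNA-binding protein derived from a LINE-1 retrotransposon that is restricted to pluripotent and germ cells.

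The let-7 sequence and its matches link 3 of the 4 genes, and they are shown before the levels. In RefSeq (GRCm38.p6), the 12 mouse let-7 and miR-98 hairpins matched carried 1 seed, bases 2 to 8 of the mature strand, given in capitals for let-7a:

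let-7a-5p: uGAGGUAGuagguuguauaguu

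LIN28A contacts the loop between the arms of the hairpin, and a GGAG motif there is the known binding site of its zinc knuckles. The motif stood in the loop of 9 of the 12 hairpins and not in the other 3. Loops with the motif (in capitals) and, last, 1 without it are given to show the difference.

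let-7g loop: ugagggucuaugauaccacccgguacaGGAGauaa
let-7a-1 loop: uuagggucacacccaccacugGGAGauaac
let-7b loop: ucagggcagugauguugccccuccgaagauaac

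The reverse complement of the seed, CTACCTC, was searched on the transcript strand in the 3′ UTR (the untranslated end after the stop codon). For each gene the longest 3′ UTR among its annotated protein-coding transcripts was used. Of 20944 annotated 3′ UTRs, 8.97% held a match, and 7.64% held the same letters on the opposite strand. Lin28a had 2 matches in a 3′ UTR of 2775 bases, Trim71 had 4 in 5512 bases and Igf2bp1 had 4 in 6337 bases. Long UTRs hold more matches by their length alone. Among annotated 3′ UTRs within 20% of the same length, 2.08% had as many as Lin28a, 0.381% as many as Trim71 and 0.179% as many as Igf2bp1. L1td1 had no match in its 3′ UTR of 364 bases, and 2.98% of UTRs of like length had any. The sites shown are 24-base stretches on the minus strand of GRCm38, with the match in capitals. Lin28a has its sites at chr4:134005188-134005211 and chr4:134004550-134004573, Trim71 the first pair at chr9:114512471-114512494 and chr9:114512375-114512398, and Igf2bp1 the first at chr11:95961777-95961800.

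Lin28a first site: gcacagcctgttgaaCTACCTCat
Lin28a second site: gagatcgccacaaacCTACCTCac
Trim71 first site: aacattgcctaagtcCTACCTCag
Trim71 second site: agtgataatttctatCTACCTCaa
Igf2bp1 first site: gctgtgcgaagtaaaCTACCTCaa

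The paralogue Lin28b had 4 matches in 4445 bases, and Igf2bp2 and Igf2bp3 had 1 each. A match is a description of the annotated sequence, and repression by let-7 was not measured in these libraries.

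**Figure D1:**
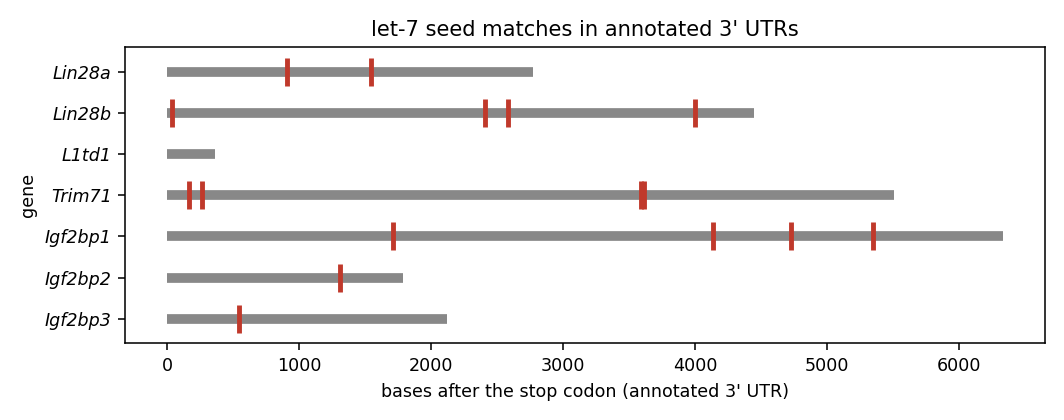
Positions of the let-7 seed match in annotated mouse 3′ UTRs; the horizontal axis is the distance from the stop codon in bases, grey bars are the UTRs drawn to length, and red ticks are matches. Trim71 and Igf2bp1 have 4 each, with 2 of the Trim71 ticks nearly merged, and L1td1 has a short UTR and none.

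Levels are given in RPKM, reads scaled to the length of the gene model and to the alignments of the library. The scale does not correct for priming or PCR, so comparisons between genes are of RPKM and not of transcript copies. The libraries had 18852822 to 34681566 alignments. All 8 markers of embryonic stem cells on the list were measured, with a summed level of 1384 to 2819 RPKM per library. Pou5f1 (Oct4), the transcription factor that defines the state, stood between 91.5 and 260 RPKM. Nanog was at 0 in number 3 and stood at 3.85 to 8.39 RPKM in the others. Of 6 fibroblast markers 3 were measured, at 0.832 RPKM or less. What a low level means at this amount of RNA was not tested. Fewer cells of a kind, fewer copies per cell, and molecules lost when the RNA was diluted, copied or amplified cannot be told apart here. PCR reads carry no molecular identifiers here, so counting intervals and limits cover counting error only.

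The 4 genes lay at very different levels, and for 3 of them the replicate number separated the libraries more than the method did. L1td1 was among the genes with the highest RPKM in number 1 of both methods and about 10 times or more lower elsewhere. Lin28a was lowest in number 1, and Igf2bp1 stood highest in number 2. Trim71 was at or near 0 throughout. None of the 3 tested genes passed limma's test between methods, with or without the replicate number as a block.

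**Figure D2:**
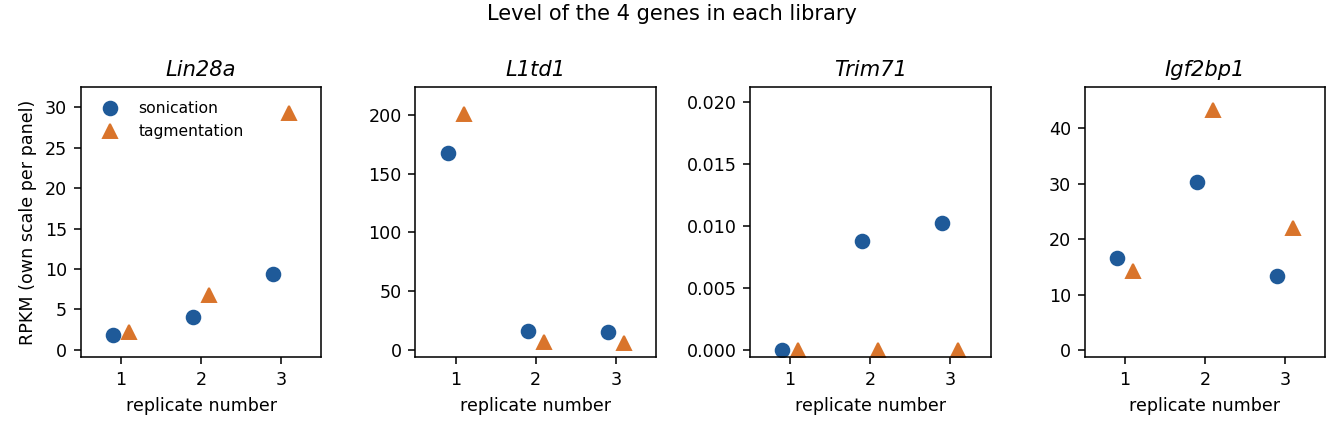
RPKM of Lin28a, L1td1, Trim71 and Igf2bp1 in each of the 6 libraries, with the replicate number on the horizontal axis, circles for sonication and triangles for tagmentation; each panel has its own linear scale. L1td1 is at 168 and 201 RPKM in number 1 and at 16.0 or less elsewhere, Lin28a is highest in tagmentation replicate 3 at 29.2, and Trim71 does not pass 0.0102.

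Lin28a, the let-7 antagonist, stood in replicates 1, 2 and 3 at 1.79, 4.09 and 9.33 RPKM when sonicated and at 2.17, 6.82 and 29.2 RPKM when tagmented. Both methods gave the same order of the numbers, lowest in 1 and highest in 3, and the ranges of the methods overlapped. Reads were recovered even at the lowest level, and whether library depth limited that level was not tested. The RPKM steps and the alignment totals in the header gave whole reads at a gene model of 3480 bases. The tolerance was 0.002 reads plus 1e-05 of the value. Lin28a had 159 reads in its lowest library and 3530 in its highest. Between 48.8% and 84.0% of the gene rows were lower than Lin28a in their library, so it was a mid-level transcript.

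Averaged over the methods, Lin28a stood at 1.98 RPKM in number 1, 5.46 in number 2 and 19.3 in number 3, a 9.72-fold span. Its range between numbers was 2.57 on the log2(RPKM + 1) scale (limma's F test with the method as a term, Benjamini-Hochberg adjusted p 7.7e-11). That p rests mostly on an error shared over genes, and with no filter, where less is shared, it was 0.0167. Each step of the order was called. Number 2 was above number 1 by 1.08 when number 3 was left out (limma adjusted p 0.00167). That fit rested wholly on an error shared over genes and called 4420 of the 6327 tested genes. Number 3 was above number 2 by 1.49 when number 1 was left out (limma adjusted p 5.9e-04), in a fit that called 4557. Such differences were the rule in these libraries, since 88.1% of the 6327 tested genes were called between numbers, and 58.5% were called with a span of 4-fold or more on that scale. The median span of all tested genes was 2.38.

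Between methods, Lin28a averaged 5.07 ± 3.86 RPKM in the sonicated and 12.7 ± 14.5 RPKM in the tagmented libraries (SD, n = 3). The log2 difference, tagmentation over sonication, was 0.79 (SE 1.30, limma adjusted p 1.00), smaller than its standard error, and limma called 0 of the 6327 tested genes (0%), with 18 at an unadjusted p under 0.05. It fell to -0.082 without tagmentation replicate 3. Within the numbers the tagmented library was higher in 3 of 3, which was so for 19.6% of tested genes. The RPKM ratio was 1.21 in number 1 (95% exact counting interval 0.976 to 1.51), 1.67 in number 2 (1.46 to 1.91) and 3.14 in number 3 (2.88 to 3.42). The excess was thus within counting error in number 1, and the intervals of numbers 2 and 3 did not overlap. With the replicate number as a block the same difference of 0.79 had an SE of 0.29 and an adjusted p of 0.106 in limma, where 3.29% of genes were called. Without number 1 the blocked difference was 1.09 and was called (limma adjusted p 0.0238), in a fit that called 16.6% of genes.

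**Figure D3:**
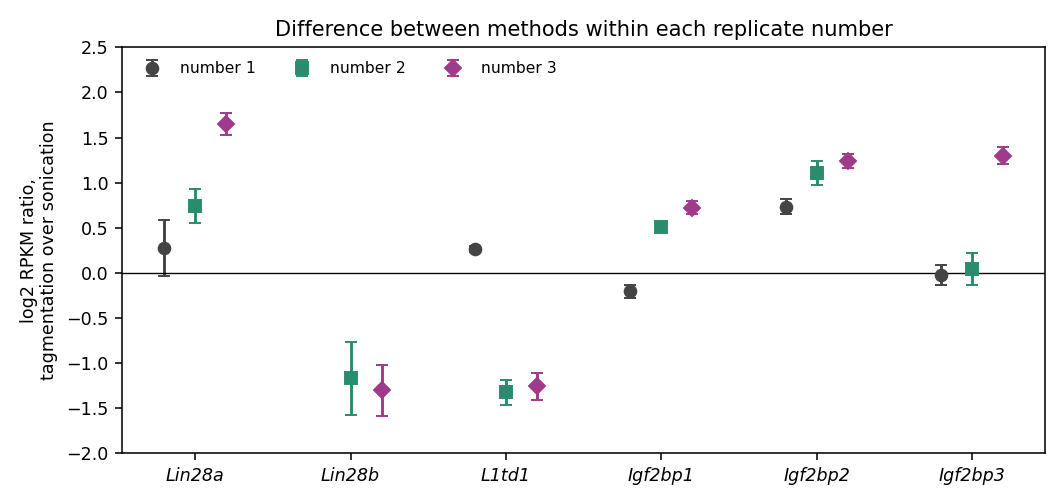
Log2 ratio of RPKM, tagmentation over sonication, within each replicate number for Lin28a, L1td1, Igf2bp1 and the paralogues Lin28b, Igf2bp2 and Igf2bp3; points are single library pairs and bars are 95% exact counting intervals. Lin28a and Igf2bp2 lie above 0 in 3 of 3 numbers, L1td1 is above 0 in number 1 and below it in numbers 2 and 3, and Lin28b has no point in number 1, where both libraries were listed at 0.

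Lin28b, the paralogue with the same let-7 activity, stood in replicates 1, 2 and 3 at 0, 1.07 and 2.43 RPKM when sonicated and at 0, 0.476 and 0.987 RPKM when tagmented. It was kept out of the test by the filter, which asked for 1 RPKM or more in at least 3 libraries. Its order over the numbers was that of Lin28a. The direction between methods was not: the tagmented library had 0.445 times the sonicated level in number 2 (counting interval 0.336 to 0.589) and 0.406 times in number 3 (0.333 to 0.493). In every library Lin28a stood above Lin28b.

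L1td1, the domesticated LINE-1 protein gene, stood in replicates 1, 2 and 3 at 168, 16.0 and 14.8 RPKM when sonicated and at 201, 6.37 and 6.19 RPKM when tagmented. Number 1 stood far above the others in both methods, and the methods' ranges overlapped because of it. In number 1, 96.9% and 97.9% of gene rows were lower than L1td1, and its level was near that of Pou5f1 in the same libraries (182 and 127 RPKM). In the other 4 libraries 65.1% to 80.7% of rows were lower. Whole reads came out at a model of 2942 bases, the length of an annotated L1td1 transcript, with 14957 and 12425 reads in number 1 and 632 to 1034 in the rest.

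The mean of L1td1 was 184 RPKM in number 1, 11.2 in number 2 and 10.5 in number 3, a 17.6-fold span. Its log2 range of 4.11 was above the median of all genes (limma adjusted p 1.4e-26, and 0.00443 with no filter). All of it came from number 1: without that number the remaining difference was 0.069 (limma adjusted p 0.781), so numbers 2 and 3 did not differ beyond their spread. Dab2, a marker of extraembryonic endoderm, was also highest in number 1, at 5.54 and 9.29 RPKM against 0.107 or less in the other libraries. It was the single marker measured of 5 on that list, and its part in the L1td1 level was not tested. Of the 8 stem cell markers, 5 were highest in number 1 as well, as were 2514 of the 6327 tested genes.

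Between methods L1td1 averaged 66.2 ± 88.0 RPKM in the sonicated and 71.2 ± 112 RPKM in the tagmented libraries (SD, n = 3), with a log2 difference of -0.69 (SE 1.39, limma adjusted p 1.00). The sign rested on single libraries: the value was 0.43 without sonication replicate 1, 0.097 without tagmentation replicate 2 and 0.11 without tagmentation replicate 3. Within the numbers the direction was mixed. The tagmented library was 1.20 times the sonicated one in number 1 (counting interval 1.17 to 1.23), 2.51-fold lower in number 2 (2.27 to 2.77) and 2.39-fold lower in number 3 (2.15 to 2.66). These ratios differed by more than counting error. With the block the log2 difference of -0.69 had an SE of 0.30 (limma adjusted p 0.199). Without number 1 it was -1.17 and was called (limma adjusted p 0.0102), in a fit that called 16.6% of genes.

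Set against each other, L1td1 and Lin28a differed most in number 1, where L1td1 was highest and Lin28a lowest. The RPKM ratio of L1td1 to Lin28a in replicates 1, 2 and 3 was 93.6, 3.91 and 1.59 with sonication and 92.4, 0.934 and 0.212 with tagmentation. Which of these genes had the higher RPKM therefore depended on the library. Over the 6 libraries, which hold 3 numbers and so are not independent, their log2(RPKM + 1) values had a Pearson r of -0.82 and a Spearman rho of -0.89, given as a description. Igf2bp1 had an r of 0.18 with Lin28a and -0.61 with L1td1.

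Igf2bp1, the gene of the mRNA-stabilizing protein, stood in replicates 1, 2 and 3 at 16.5, 30.4 and 13.3 RPKM when sonicated and at 14.3, 43.2 and 22.0 RPKM when tagmented. Number 2 was highest in both methods, and the methods overlapped. It was the steadiest of the 3 tested genes, with 72.8% to 86.8% of gene rows lower and 2105 to 12544 whole reads at a model of 8381 bases. The means were 15.4, 36.8 and 17.7 RPKM in numbers 1, 2 and 3, a 2.39-fold span. The log2 range of 1.19 was called (limma adjusted p 0.00242, and 0.0449 with no filter) and was below the median of all genes. Numbers 1 and 3 did not differ beyond their spread (0.15, limma adjusted p 0.855 without number 2). T (brachyury), a marker of primitive streak and mesoderm, was likewise highest in number 2, at 61.3 and 83.2 RPKM against 0.145 to 12.6 RPKM elsewhere, as was Eomes at 2.78 and 5.29 RPKM. Of 4 markers on that list 3 were measured, Mixl1 was at 0.0126 RPKM or less, and their part in the Igf2bp1 level was not tested. Of the 8 stem cell markers, 3 were highest in number 2 as well, as were 2414 of the 6327 tested genes.

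Between methods Igf2bp1 averaged 20.1 ± 9.06 RPKM in the sonicated and 26.5 ± 15.0 RPKM in the tagmented libraries (SD, n = 3). The log2 difference was 0.33 (SE 0.80, limma adjusted p 1.00) and was -0.083 without tagmentation replicate 2. With the block it had an SE of 0.29 (limma adjusted p 0.638). The tagmented library was 1.15-fold lower in number 1 (counting interval 1.10 to 1.21) and higher by ratios of 1.42 in number 2 (1.38 to 1.47) and 1.65 in number 3 (1.57 to 1.74). Numbers 2 and 3 thus went the other way from number 1 by more than counting error.

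The paralogues of Igf2bp1 peaked in another number. Igf2bp2, an mRNA-binding protein of growth and metabolism, stood in replicates 1, 2 and 3 at 17.3, 6.67 and 24.6 RPKM when sonicated and at 28.8, 14.3 and 58.0 RPKM when tagmented. Its level was lowest in number 2, where Igf2bp1 was highest, and it was higher after tagmentation in 3 of 3 numbers by ratios of 1.66, 2.15 and 2.36. It was called with the block (0.97, SE 0.29, limma adjusted p 0.0392) and not without it. After a correction for GC content, under which 0 genes were called, the blocked difference was 0.84 (limma adjusted p 0.211). The call was made in 4 of 8 settings with the block, counting the main blocked fit itself, with limma adjusted p-values from 0.0322 to 0.698. It was lost without number 2 (0.96, limma adjusted p 0.999) or number 3 (0.85, limma adjusted p 0.855). Igf2bp3, the paralogue common in embryos and tumours, had 12.0, 4.45 and 13.5 RPKM with sonication and 11.8, 4.59 and 33.1 RPKM with tagmentation. Its pairs differed beyond counting error in number 3 alone, with a ratio of 2.46 (2.30 to 2.62), and it was not called (limma adjusted p 0.505 with the block).

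Trim71, the let-7 target and mRNA repressor, was listed at 0, 0.00875 and 0.0102 RPKM in sonication replicates 1, 2 and 3 and at 0 in the 3 tagmented libraries. The values above 0 stood for the same number of reads, 1 each if the gene model had 5192 bases. The annotated transcript is longer, at 9332 bases, and the model the authors used is not given in the sources used here. At that model 3 reads, the limit that a count of 0 allows, are worth 0.0167 to 0.0275 RPKM in the 4 libraries at 0. No test between methods was informative, since an exact permutation test of 3 against 3 libraries allows no p below 0.1. No fold was computed.

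The share of the variation that lay between numbers was 82.5% for Lin28a, 94.1% for L1td1 and 81.6% for Igf2bp1, as parts of the sum of squares of log2(RPKM + 1). The method took 11.5%, 3.05% and 7.97% in that order. The median over tested genes was 94.0% for the number and 1.62% for the method. L1td1 was near the typical gene in this split, and Lin28a and Igf2bp1 had more of their variation between methods and in the remainder.

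The list of let-7 processing genes and LIN28 cofactors, Lin28b and Argonaute genes included, had 23 of 24 names measured, and 18 were tested. None was called between methods without the block, and 1 was higher after tagmentation with it, in a fit where 1.58% of all tested genes were called higher. This was Syncrip (hnRNP Q), an RNA-binding protein with 11.8, 24.4 and 7.68 RPKM with sonication and 24.8, 48.5 and 16.2 RPKM with tagmentation (0.99, SE 0.29, limma adjusted p 0.0339 with the block). The call was made in 4 of 8 settings with the block, counting the main blocked fit itself, with limma adjusted p-values from 0.0300 to 0.698. After the GC correction, under which 0 genes were called, the difference was 1.11. Without number 2 or number 3 it was not called (1.00 and 0.99, limma adjusted p 0.999 and 0.651). The median log2 difference of the list was 0.13, against 0.028 for all tested genes. Between numbers 16 of the 18 were called, 88.9% against 88.1% of all genes.

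Genes of the let-7 processing list peaked in different numbers, 10 of the 18 tested in number 1, 5 in number 2 and 3 in number 3. Of all 6327 tested genes, 2514, 2414 and 1399 did so in that order. Drosha, the nuclear RNase that cuts the primary transcript, had 47.8, 8.41 and 27.8 RPKM with sonication and 43.6, 7.27 and 42.8 RPKM with tagmentation, lowest in number 2. Dicer1, the RNase of the next step, was low, at 2.83 and 3.16 RPKM in number 1 and 0.568 to 2.66 RPKM elsewhere. Dgcr8, the partner of Drosha, was under the level of 1 read in number 1 and stood at 5.40 and 10.7 RPKM in number 3, the order of Lin28a. Tarbp2, the cofactor of Dicer, was highest in number 2, at 77.5 and 69.5 RPKM, with 12.7 to 23.1 RPKM elsewhere. The RNA helicase Ddx5, a part of the Drosha complex, was highest in number 1, at 141 and 207 RPKM, with 4.75 to 34.8 RPKM elsewhere. Prkra, Ddx17, Hnrnpa1 and Mov10 are the other genes of the list with a mean of at least 10 RPKM.

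Known let-7 targets were measured for 20 of 21 listed names, of which 16 were tested. All 16 were called between numbers, against 88.1% of all genes, and with the block Igf2bp2 was the single one called between methods, where 3.29% of all genes were. The median log2 difference between methods was 0.18. Targets peaked in different numbers, 6 in number 1, 3 in number 2 and 7 in number 3. Of all 6327 tested genes, 2514, 2414 and 1399 peaked in numbers 1, 2 and 3. The cell cycle phosphatase Cdc25a had 48.1, 16.2 and 0.512 RPKM with sonication and 49.5, 24.2 and 0.946 RPKM with tagmentation, highest in number 1 and lowest in number 3, the reverse of Lin28a. Myc, the growth-promoting transcription factor, was at 46.8 to 66.4 RPKM in numbers 1 and 2 and at 1.35 and 2.26 RPKM in number 3. The order of Lin28a was shared by Ccnd1 (cyclin D1), with 15.7, 29.8 and 62.2 RPKM with sonication and 18.5, 31.4 and 58.5 RPKM with tagmentation. Cdc34, a ubiquitin-conjugating enzyme, also stood lowest in number 1 (97.2 and 56.6 RPKM) and highest in number 3 (242 and 234 RPKM).

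**Figure D4:**
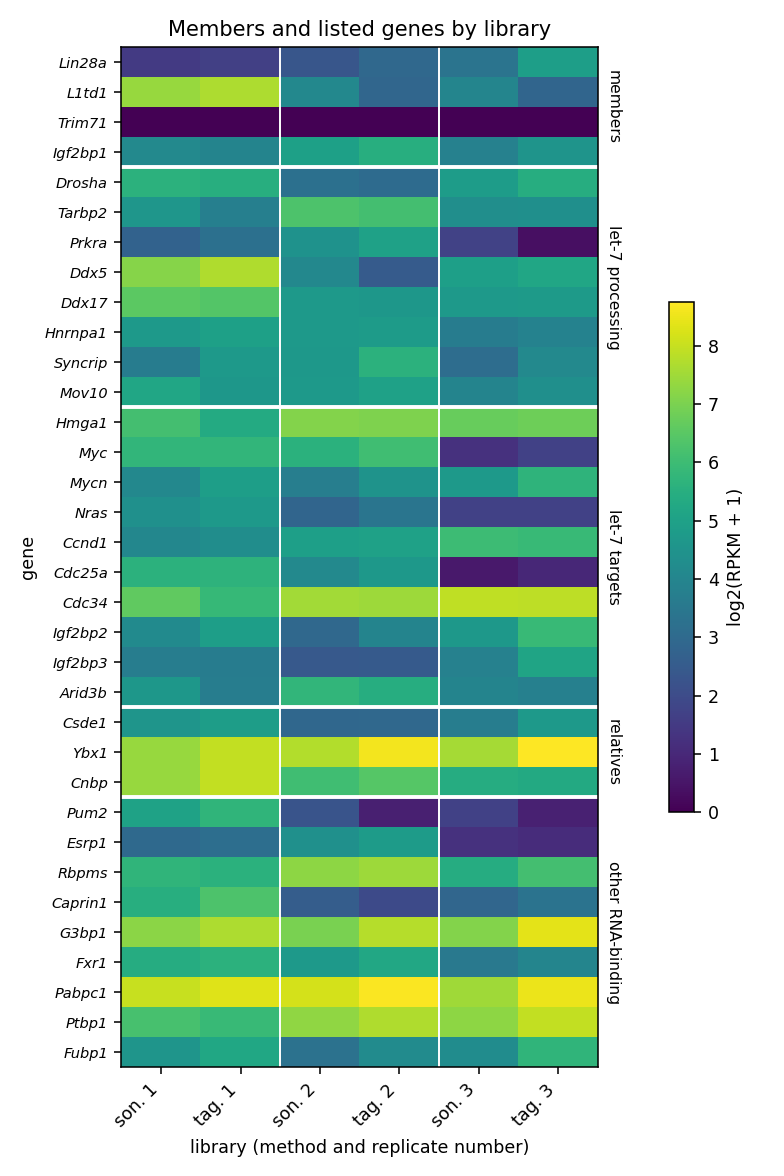
Log2(RPKM + 1) of the 4 genes and of listed genes with a mean of at least 10 RPKM (1 is not shown), in rows by list, and of the 6 libraries in columns by replicate number, with sonication (son.) and tagmentation (tag.) side by side; a lighter colour is a higher level. Neighbouring columns of 1 number look alike, while L1td1, Myc and Cdc25a change between numbers.

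Relatives of the 4 genes by paralogy or protein domain were measured for 9 of 9 listed names and tested for 5, and 4 of these were called between numbers (80.0%, against 88.1% of all genes). The exception was Ybx1, a cold shock domain protein like LIN28A that packages mRNA, with 166, 213 and 190 RPKM with sonication and 243, 386 and 429 RPKM with tagmentation. Ybx1 was higher after tagmentation in 3 of 3 numbers, as were 19.6% of tested genes, and was not called with the block (0.86, limma adjusted p 0.0871). Cnbp, which shares the zinc knuckle fold with LIN28A, had 168, 66.4 and 42.1 RPKM and 244, 86.5 and 39.0 RPKM, with the reverse order of Lin28a. Trim2, Trim3 and Trim32, which share the NHL domain family with TRIM71, stood at 1.92 RPKM or less and were not tested.

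Other RNA-binding proteins of stem cells and translation were measured for 14 of 16 listed names, and 11 were tested. With the block 1 was higher after tagmentation, against 1.58% of all tested genes. It was Fubp1, a single-stranded nucleic acid binding protein (1.02, SE 0.29, limma adjusted p 0.0291). Its call was made in 4 of 8 settings with the block, counting the main blocked fit itself, with limma adjusted p-values from 0.0207 to 0.698. After the GC correction the difference was 1.08. It was not called without number 2 (1.07, limma adjusted p 0.999) or number 3 (0.79, limma adjusted p 0.909). Between numbers 9 of the 11 were called (81.8%, against 88.1% of all genes). The exceptions were the abundant G3bp1, a stress granule protein, at 124 to 336 RPKM, and Pabpc1, the poly(A)-binding protein, at 181 to 415 RPKM. Pum2, a translational repressor, had 31.6 and 52.1 RPKM in number 1 and 3.87 or less elsewhere, with tagmentation below sonication in numbers 2 and 3 as for L1td1.

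Genes whose pattern was most like Lin28a, L1td1 and Igf2bp1 were ranked by Pearson r of log2(RPKM + 1) over the 6 libraries among tested genes with a mean of at least 10 RPKM. For Lin28a these were Stau1, Add1, Tars, Uck2 and Sft2d1, with an r of 0.987 to 0.993. Stau1, a double-stranded RNA-binding protein of mRNA transport and decay, had 9.90, 12.6 and 17.7 RPKM with sonication and 9.81, 17.6 and 31.3 RPKM with tagmentation, a narrower span than Lin28a. An r of 0.95 or more with Lin28a was found for 52 of 3914 genes (1.33%), with L1td1 for 220 of 3913 (5.62%) and with Igf2bp1 for 70 of 3913 (1.79%). With 3 numbers behind 6 libraries many genes share a pattern.

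For L1td1 the nearest were Zfp809, Snrnp27, Sucla2, Pid1 and Ahsa2, with an r of 0.999 to 1.00. They stood at 31.9 to 188 RPKM in number 1, at 1.32 to 4.19 RPKM in sonication libraries 2 and 3 and at 0.0698 to 0.690 RPKM in tagmentation libraries 2 and 3. Like L1td1, they were lower after tagmentation in numbers 2 and 3 and higher after it in number 1. They were chosen by r over these same libraries, which favours such a shared pattern. For Igf2bp1 the nearest were Rac1, Poldip2, 1500009L16Rik, Pik3c3 and Acot13, with an r of 0.989 to 0.994. Rac1, a small GTPase of the cytoskeleton, had 39.0, 98.9 and 32.5 RPKM with sonication and 36.3, 153 and 71.2 RPKM with tagmentation.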

How the data were processed

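The 6 libraries were assigned to methods and numbers by their labels. The authors deposited RPKM values in 1 table, whose header also gives each library's alignments. The submitters' processing notes list mm9 as build and CASAVA 1.7.0 and Partek as tools. The aligner is not given in the sources used here, nor is the annotation. No coordinates of the files were used: 3′ UTRs came from GENCODE M21 and hairpins from RefSeq, both on GRCm38, and matched by symbol. Because RPKM values are not counts, they were tested as log2(RPKM + 1) with limma 3.58.1 in R 4.3.3 (lmFit, eBayes with a trend, two-sided). Genes needed 1 RPKM or more in at least 3 of 6 libraries, which kept 3 of the 4 genes and 6327 of 12331 in all. P-values were Benjamini-Hochberg adjusted over all genes tested, with a threshold of 0.05. This scale makes the fold of a low gene look smaller than it is.

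The main fit had the method alone, and an alternative added the replicate number as a block. On the log2 scale, same-numbered libraries correlated by 0.977, 0.977 and 0.958 and others by 0.482 to 0.705. After taking off the method means the values were 0.952, 0.969 and 0.934 and, for the others, -0.175 or less. Taking off the means by itself pushes the others down where same-numbered libraries correlate. The numbers were taken as pairs. A further limma F test compared the numbers with the method as a term. Replicates are technical, so p-values cover the spread of these libraries and not of cultures. The fit was tested on simulated data.

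Reads were recovered for single genes as the model length at which all RPKM values above a floor near 0 gave whole reads. Genes of the lists were named where their mean was at least 10 RPKM or a fit called them. Lin28b, the Trim genes, Mirlet7d and the markers Dab2, Eomes and Mixl1 fall outside this rule and were named after their values were seen. The 5 genes most like each of the 3 tested genes were named by r. The 4 genes, lists and tests were chosen with earlier results of these data known. Listed symbols without a row (Eif2c3, Irs2, Msi1, Dazl and several markers) were not analysed here, and 1 listed gene is counted but not reported here. Alternatives changed the pseudocount, filter, scaling and libraries, and a GC correction was added after seeing the data.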

Additional observations from a re-analysis of the deposited data

How the results depend on the processing

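Between methods without the replicate block, 0 genes and none of the 4 were called under any setting or left-out library run. The blocked fit, which uses the pairing by number, rested on 210 prior degrees of freedom and so said little of a gene's own error. Its count moved from 208 to 8 with a pseudocount of 0.1, 168 with a pseudocount of 5 and 168 with a mean of at least 10 RPKM. It was 74 with median-ratio scaling (45 higher, 29 lower), 476 with quantile normalization (240 higher, 236 lower), and 0 with no filter or the GC correction. Leaving out number 1, 2 or 3 gave 1051, 10 or 19 genes and 0 to 2 of the 4, the latter being Lin28a and L1td1 without number 1. With the block and without a number, Lin28a gave 0.40 to 1.09, L1td1 -1.17 to -0.44, Igf2bp1 0.15 to 0.59 and Igf2bp3 0.0088 to 0.64. Without the block, leaving out 1 library gave -0.082 to 1.54 for Lin28a, -2.29 to 0.43 for L1td1 and -0.083 to 0.68 for Igf2bp1 and -0.25 to 1.05 for Igf2bp3. The sign turned for Lin28a without tagmentation 3 (-0.082), for L1td1 without sonication 1 (0.43), tagmentation 2 (0.097) or tagmentation 3 (0.11), for Igf2bp1 without tagmentation 2 (-0.083), and for Igf2bp3 without sonication 2 (-0.026) or tagmentation 3 (-0.25). Between numbers, 3411 of 4023 genes were called with a mean of at least 10 RPKM, since fewer were tested. The main F test between numbers also rested on 210 prior degrees of freedom, and on 1.81 with no filter. Leaving out a number gave a range of 0.069 to 4.11 for L1td1 and 0.15 to 1.19 for Igf2bp1. All other settings kept the directions between methods and the calls of the 3 tested genes. The lowest number of L1td1 was 2 in place of 3 with median-ratio scaling, quantile normalization or the GC correction. Lin28a has no value with a mean of at least 10 RPKM, and Trim71 had one with no filter alone (-0.0091). The pairs were single libraries, so their intervals hold no error between cDNA preparations.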

Other observations

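The table also holds a row for a let-7 hairpin gene, singled out after its values were seen. Mirlet7d stood at 33.6 RPKM in sonication library 1 and at 45.8 RPKM in tagmentation library 1, and was listed at 0 in the other 4. These values are whole reads, 105 and 99, at a model of 103 bases, the length of the hairpin in RefSeq. Oligo(dT) priming does not capture the mature microRNA, so these reads are no measure of it. Number 1 was also the number with the lowest Lin28a and no Lin28b, and 2514 of the 6327 tested genes were highest in it. No test was run of a relation over 3 numbers.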
